A study of Mus musculus with 72 samples.

Results

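The proteasome is encoded by the Psm gene families, and 50 of the 19938 genes measured here have a symbol that begins with Psm, a letter from a to g and a number. All 50 were taken as the set, whatever their values. Psmc3ip and Psme3ip1 match by spelling alone and encode partner proteins, so 48 genes encode the proteasome, its activators, its inhibitor or its assembly chaperones. Of these, 5 belong to the immunoproteasome (Psmb8, Psmb9, Psmb10, Psme1 and Psme2) and 31 are constitutive subunits (7 alpha, 7 beta, 6 ATPase and 11 other subunits of the regulatory particle).

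Bone marrow with acute promyelocytic leukaemia (APL) was profiled on 72 arrays, 36 from mice of a transgenic model and 36 from a viral transduction model. The transgenic leukaemias carried PML/RARA (24 arrays) or PLZF/RARA (12 arrays), both in a wild type background. The viral leukaemias carried PML/RARA in a wild type background or in a background labelled pml-/-, written Pml null here (18 arrays each). Mice were untreated or had received retinoic acid (RA), and arrays are labelled 6 h or 12 h. Transgenic PML/RARA had 4 untreated and 8 RA arrays at each time, and transgenic PLZF/RARA had 2 and 4. Both viral leukaemias had 4 untreated and 8 RA arrays at 6 h, and 2 and 4 at 12 h. The labels name no promoter for the transgenes, no vector, no age of the mice, no dose of RA and no number of leukaemias. Nothing in the labels ties the arrays of a group to separate mice, and p-values then measure only how arrays vary, which may be technical.

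The proteasome degrades proteins that carry ubiquitin chains. Its core particle is a barrel whose outer rings hold alpha subunits and whose inner rings hold beta subunits, of which Psmb5, Psmb6 and Psmb7 are the catalytic ones. A regulatory particle of ATPases (Psmc genes) and other subunits (Psmd genes) recognises, unfolds and feeds in the substrate. Interferon gamma induces Psmb8, Psmb9 and Psmb10, which take the places of Psmb5, Psmb6 and Psmb7 in newly built cores, and Psme1 with Psme2, which form a ring-shaped activator. This immunoproteasome makes peptides suited to presentation on MHC class I. In APL, RA is known to trigger degradation of PML/RARA through the ubiquitin and proteasome pathway.

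Array medians lay between 6.56 and 6.81 on the log2 scale. The arrays fall into 4 labelled batches, of which batches 1 and 2 hold transgenic and batches 3 and 4 viral arrays, so levels of the 2 models cannot be told apart from batch. The promyelocyte markers Mpo, Elane, Prtn3, Ctsg, Ms4a3 and Cd63 averaged 11.23 to 12.76 in every array. The Pml probe set did not check the background: it averaged 9.32 in untreated Pml wild type (9.20 to 9.41) and 9.27 in untreated Pml null arrays (9.08 to 9.52) at 6 h, and the labels do not say whether it lies in the deleted part. Bone marrow was measured in bulk, so a lower value from fewer cells of a type and from less RNA per cell cannot be told apart.

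Promoter sequences were available for 42 of the 50 genes, as RefSeq windows of 300 bases (250 before and 50 after the start, build GRCm38.p6), with 46 windows in all. They are shown for the interferon-inducible Psmb8, Psmb9, Psmb10 and Psme1 and for the catalytic subunits Psmb5 and Psmb6. Psmb7 had no window, and the sequence for Psme2 is not shown. Capitals mark matches to 3 motifs searched on both strands, which do not overlap in these windows: the core of the interferon response element (GAAA, any 2 bases, GAAA), TTCNNNGAA, a STAT site, and TGACNNNGC, a core of the antioxidant response element. The coordinates and strands are chr17:34197945-34198244 (plus) for Psmb8, chr17:34187281-34187580 (minus) for Psmb9, chr8:105938343-105938642 (minus) for Psmb10, chr14:55578244-55578543 (plus) for Psme1, chr14:54617946-54618245 (minus) for Psmb5 and chr11:70525107-70525406 (plus) for Psmb6. Each sequence is read 5′ to 3′ on the strand of the gene.
Psmb8: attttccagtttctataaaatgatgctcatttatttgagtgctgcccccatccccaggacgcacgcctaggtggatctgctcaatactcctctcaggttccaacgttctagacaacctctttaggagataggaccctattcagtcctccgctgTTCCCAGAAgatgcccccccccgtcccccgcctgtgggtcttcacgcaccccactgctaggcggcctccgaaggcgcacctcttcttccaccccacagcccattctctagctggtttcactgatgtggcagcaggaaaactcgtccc
Psmb9: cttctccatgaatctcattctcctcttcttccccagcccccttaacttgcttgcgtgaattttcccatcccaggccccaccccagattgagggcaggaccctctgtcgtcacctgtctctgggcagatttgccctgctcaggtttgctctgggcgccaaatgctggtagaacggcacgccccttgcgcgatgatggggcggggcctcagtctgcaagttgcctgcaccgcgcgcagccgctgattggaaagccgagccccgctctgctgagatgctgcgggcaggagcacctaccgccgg
Psmb10: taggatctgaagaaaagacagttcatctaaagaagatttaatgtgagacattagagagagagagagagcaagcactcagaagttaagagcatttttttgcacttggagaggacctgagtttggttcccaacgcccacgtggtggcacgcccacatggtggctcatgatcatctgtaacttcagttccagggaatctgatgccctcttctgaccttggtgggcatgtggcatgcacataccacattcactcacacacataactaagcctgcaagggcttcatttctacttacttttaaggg
Psme1: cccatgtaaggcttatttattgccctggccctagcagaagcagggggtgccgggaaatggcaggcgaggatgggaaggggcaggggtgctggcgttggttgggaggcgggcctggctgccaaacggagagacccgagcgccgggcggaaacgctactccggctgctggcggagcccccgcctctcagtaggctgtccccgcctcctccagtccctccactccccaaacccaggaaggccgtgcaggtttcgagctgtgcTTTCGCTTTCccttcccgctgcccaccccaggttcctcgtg
Psmb5: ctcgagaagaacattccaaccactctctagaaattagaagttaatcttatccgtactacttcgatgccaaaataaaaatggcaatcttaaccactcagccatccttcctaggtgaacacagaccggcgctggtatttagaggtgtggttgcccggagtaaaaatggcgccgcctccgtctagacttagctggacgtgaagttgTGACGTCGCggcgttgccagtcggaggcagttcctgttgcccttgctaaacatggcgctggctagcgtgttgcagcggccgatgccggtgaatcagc
Psmb6: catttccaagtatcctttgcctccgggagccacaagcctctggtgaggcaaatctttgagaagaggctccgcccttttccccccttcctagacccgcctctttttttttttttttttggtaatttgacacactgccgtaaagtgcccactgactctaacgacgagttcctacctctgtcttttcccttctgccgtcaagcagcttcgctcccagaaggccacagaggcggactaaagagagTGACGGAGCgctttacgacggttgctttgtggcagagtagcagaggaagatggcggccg

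The Psme1 window held the interferon core on the minus strand, as TTTCGCTTTC at bases 260 to 269 of the window. The Psmb8 window held a STAT site, TTCCCAGAA, at bases 154 to 162. Psmb5 and Psmb6 held the antioxidant core, as TGACGTCGC at bases 204 to 212 and TGACGGAGC at bases 242 to 250. No match to any of the 3 motifs was found in the windows of Psmb9, Psmb10, Psme2 or Psma6, which says only that these letters are not in these windows. Over all 32851 windows of the table, 3.44% held the interferon core, 8.3% the STAT site and 12.39% the antioxidant core. Among the 46 windows of the set, 5, 3 and 6 held them (10.87%, 6.52% and 13.04%). Besides Psme1, the interferon core was in windows of Psmb3, Psmd4, Psmd9 and Psmg4. These are not immunoproteasome genes and were called in no RA effect, as were 66.1% of all genes. The STAT site was also in windows of Psmd2 and Psmg1. The windows of the 25 constitutive subunits with a promoter had a median GC content of 56.7%, against 58.5% for the immunoproteasome genes and 52.7% for all windows.

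Immunoproteasome genes were called higher after RA in the transgenic leukaemias and at 12 h in the Pml null leukaemia. In PLZF/RARA and in Pml null many of these calls rested on single untreated arrays, as given below. A difference in this response between leukaemias was not shown. Simulated noise at times gave bursts of false calls, above all in Pml null at 12 h. Genes called together there are not independent evidence. In limma fits over all genes, with calls at a Benjamini-Hochberg adjusted p below 0.05, 6 genes of the set rose and 2 fell in transgenic PML/RARA at 6 h, where 5.81% of all genes rose and 8.54% fell. At 12 h, 9 rose and 4 fell (9.88% and 11.7% of all genes). In transgenic PLZF/RARA, 3 rose at 6 h (1.45% of all genes) and 4 rose at 12 h (2.46%), and none fell, where 0.747% and 1.57% of all genes fell. In viral Pml wild type, 1 rose and 2 fell at 6 h (5.44% and 4.44% of all genes) and again 1 and 2 at 12 h (3.03% and 3.07%). In viral Pml null, 3 rose and 3 fell at 6 h (4.97% and 6.38% of all genes), and 6 rose and 1 fell at 12 h (4.22% and 1.83%). Without Psmc3ip and Psme3ip1 only the count of genes that fell in PML/RARA at 12 h changes, to 3. Over the 8 RA effects, 32 of the 50 genes (64%) were called in none, near the 66.1% of all genes. Of the 31 constitutive subunits 24 (77.4%) were called in none, and of the 5 immunoproteasome genes 0. Leaving out untreated array 4 of PML/RARA at 6 h left 4 calls there, and leaving out untreated array 2 of Pml null at 6 h left 3. The Pml wild type count was 5 at 6 h without RA array 5 or without RA array 6. At 12 h, 0 were called without either untreated array and 1 without RA array 2 or RA array 4.

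**Figure D1:**
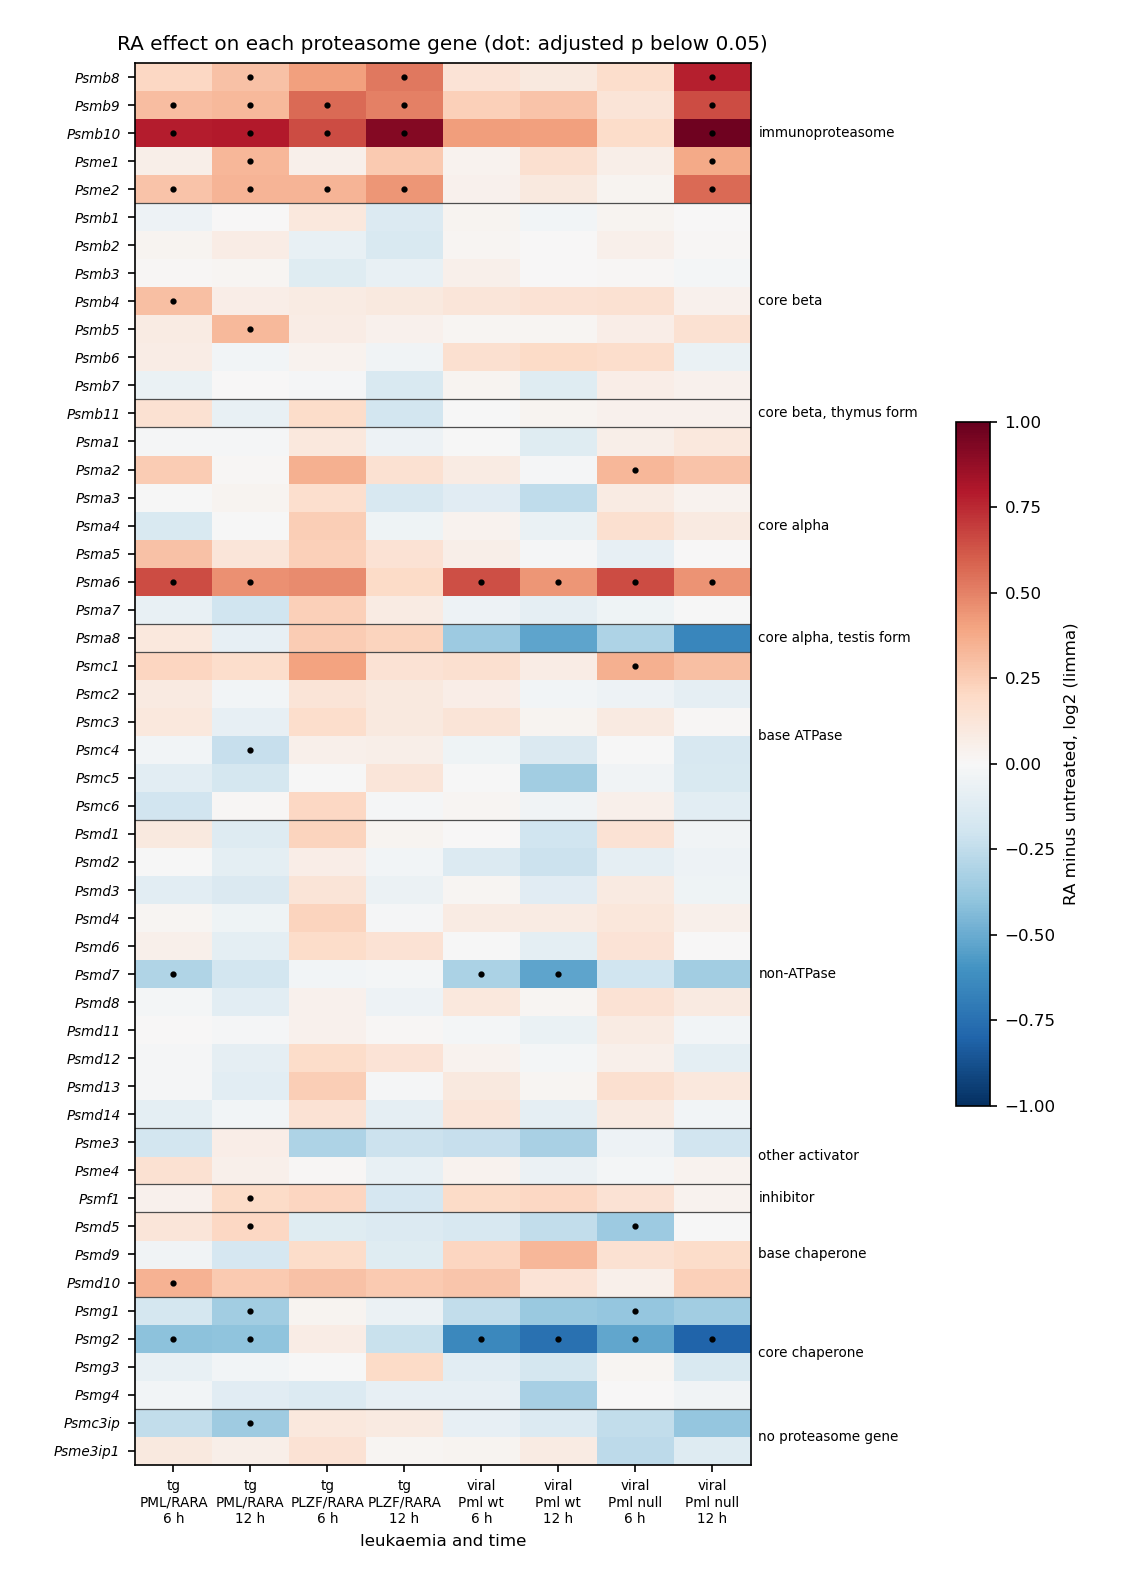
Difference between RA and untreated arrays (log2, colour) for each of the 50 genes (rows, grouped by role) in each leukaemia and time (columns), with a dot where limma's adjusted p was below 0.05. The 5 immunoproteasome genes at the top are dotted mainly in the transgenic columns and at 12 h in Pml null, and the 31 constitutive subunits are mostly near 0 except Psma6.

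Psmb10, the inducible partner of Psmb7, had the largest point estimate of the 5 immunoproteasome genes in all 8 RA effects, from 0.19 in Pml null at 6 h to 0.97 in Pml null at 12 h. In transgenic PML/RARA at 6 h, the untreated arrays read 9.90, 9.57, 9.62 and 9.39, and the 8 RA arrays ran from 9.98 to 10.66 with a median of 10.37. Every RA array lay above every untreated array, which held for 4.71% of all genes. The difference was 0.79 ± 0.12 (log2, SE), which is 1.73-fold, with a limma adjusted p of 1.22e-05. At 12 h the untreated arrays read 9.15, 9.46, 9.54 and 9.35 and the RA arrays 9.64 to 10.39 (median 10.24), again without overlap (0.79 ± 0.12, adjusted p 3.58e-06). There 6.57% of all genes were higher without overlap. In PLZF/RARA at 12 h, untreated arrays read 8.61 and 8.57 and RA arrays 9.38, 9.69, 9.57 and 9.39, a 1.89-fold difference (0.92 ± 0.17, adjusted p 0.000611). At 6 h in PLZF/RARA it also rose (0.65 ± 0.17, adjusted p 0.0314). In Pml null at 12 h, untreated arrays read 8.76 and 8.78 and RA arrays 9.78, 9.59, 9.90 and 9.69 (0.97 ± 0.22, 1.96-fold, adjusted p 0.00541). At 6 h in Pml null the groups overlapped, with untreated arrays at 8.88, 8.76, 9.25 and 8.88 and RA arrays from 8.82 to 9.79 (median 9.01). That difference, 0.19 ± 0.16, did not pass (adjusted p 0.557), nor did those in Pml wild type, 0.42 ± 0.16 at 6 h and 0.41 ± 0.22 at 12 h (adjusted p 0.098 and 0.361). The call in PLZF/RARA at 6 h was lost without either untreated array or RA arrays 2 or 4, and that in Pml null at 12 h without either untreated array. The former was also lost after a second quantile normalization, with arrays shifted to one median and in a fit to its own arrays.

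Psmb9, the inducible partner of Psmb6, rose in the same 5 comparisons as Psmb10. Its untreated arrays in PML/RARA at 6 h read 10.45, 10.29, 10.51 and 10.21, and the RA arrays ran from 10.58 to 10.82 (median 10.65), without overlap (0.31 ± 0.08, adjusted p 0.00461). In PLZF/RARA at 6 h, untreated arrays read 9.45 and 9.53, and RA arrays 10.27, 10.15, 9.85 and 9.96 (0.57 ± 0.11, 1.48-fold, adjusted p 0.00199). In Pml null at 12 h, untreated arrays read 9.23 and 9.35, and RA arrays 9.96, 9.78, 10.02 and 10.02 (0.65 ± 0.16, adjusted p 0.0079). The RA arrays of Pml wild type at 12 h (10.38, 10.40, 10.18 and 10.21) also lay above the untreated ones (10.02 and 9.99), but the difference of 0.29 ± 0.16 did not pass (adjusted p 0.366). Psmb8, the inducible partner of Psmb5, passed in 3 comparisons. It rose in PML/RARA at 12 h (0.29 ± 0.08, adjusted p 0.00747), where untreated arrays at 9.87, 10.04, 10.01 and 10.15 overlapped RA arrays at 10.04 to 10.53 (median 10.32). In PLZF/RARA at 12 h, untreated arrays read 9.75 and 9.50 and RA arrays 10.12, 10.24, 10.20 and 10.05 (0.53 ± 0.12, adjusted p 0.00425). In Pml null at 12 h the untreated arrays, at 8.85 and 9.06, were far below the RA arrays, at 9.83, 9.56, 9.82 and 9.72 (0.77 ± 0.15, 1.71-fold, adjusted p 0.000694). Among the calls of Psmb9, that in PML/RARA at 6 h was lost without untreated array 4, those in PLZF/RARA without untreated array 1 at 6 h or 2 at 12 h, and that in Pml null without either untreated array. Those of Psmb8 were lost without untreated array 1 of PML/RARA or untreated array 2 of PLZF/RARA.

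Of the activator genes, Psme2 rose in all 4 transgenic comparisons and in Pml null at 12 h, by 1.22-fold to 1.48-fold. In PML/RARA at 12 h its untreated arrays read 11.86, 11.92, 11.84 and 11.83 and its RA arrays 12.09 to 12.35 (median 12.20), without overlap (0.34 ± 0.07, adjusted p 0.000169). Psme1 passed only at 12 h, in PML/RARA (0.33 ± 0.06, adjusted p 6.54e-05) and in Pml null (0.38 ± 0.08, adjusted p 0.0032). Its untreated arrays in PML/RARA at 12 h lay at 10.38, 10.41, 10.46 and 10.43, below RA arrays at 10.57 to 10.86 (median 10.76). At 6 h in PML/RARA its difference was 0.06 ± 0.06 (adjusted p 0.656). Both calls in Pml null were lost without untreated array 2, and those of Psme2 in PLZF/RARA without untreated array 2 at 12 h and without either untreated array or RA arrays 1 or 3 at 6 h. A comparison added after the data were seen, the RA effect at 12 h minus that at 6 h, called no gene of the set in any leukaemia. In PML/RARA, PLZF/RARA, Pml wild type and Pml null it called 0.231%, 0.0251%, 0% and 0.0351% of all genes, and 3, 1, 2 and 5 genes of the set had an unadjusted limma p below 0.05. The 5 in Pml null were the 5 immunoproteasome genes, with adjusted p-values of 0.383 (Psmb8) to 0.612 (Psmb9).

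Counted as a group, the 5 immunoproteasome genes had 3 calls at 6 h and 5 at 12 h in PML/RARA, with median differences of 0.28 and 0.33 against 0.02 and -0.01 for all genes. The corresponding counts were 3 and 4 in PLZF/RARA, 0 and 0 in Pml wild type and 0 and 5 in Pml null, with medians of 0.41, 0.51, 0.14, 0.16, 0.13 and 0.65. All 5 differences were above 0 in each of the 8 RA effects, as were those of 10 of the 50 genes and of 7.36% of all genes. In single RA effects, from 36.8% (PLZF/RARA at 12 h) to 66.1% (PLZF/RARA at 6 h) of all genes were above 0. At an unadjusted limma p below 0.05 the counts were 2 and 0 in Pml wild type and 0 at 6 h in Pml null, where none was called. The counts from pairs of untreated arrays rest on single arrays: in PLZF/RARA at 6 h, 0 or 1 genes were called without untreated array 1 or 2, and at 12 h 1 gene was called without untreated array 2. In Pml null at 12 h, 3 or 1 genes were called without untreated array 1 or 2, and in Pml wild type at 6 h 1 gene was called without RA array 5. A fit to the arrays of each comparison alone called 0 and 1 in PLZF/RARA and 3 in Pml null at 12 h, and untreated arrays of both times pooled gave 5 in PML/RARA at 6 h and 2 in Pml wild type at 12 h. Within batch 1 the 6 h difference of Psmb10 in PML/RARA was 0.84 ± 0.16 (adjusted p 0.000672) and within batch 2 it was 0.71 ± 0.12 (adjusted p 0.00589). That of Psmb9 was 0.32 and 0.31, with adjusted p-values of 0.0571 and 0.0878. In PML/RARA at 12 h, 4 of 4 measured erythroid markers, 2 of 6 monocyte and macrophage markers and 3 of 7 stroma markers rose as well. The mean level of the erythroid markers ran from 8.22 to 9.34 in the untreated and 8.68 to 10.42 in the RA arrays. Of 6 promyelocyte markers 2 rose and 2 fell there, 1 of 5 dendritic cell markers rose and 1 of 5 B cell markers fell. In PLZF/RARA at 12 h, 2 of 7 stroma markers and 1 of 6 promyelocyte markers rose and 1 of 5 dendritic cell markers fell. In Pml null at 12 h, 2 of 7 stroma markers and 1 of 6 T and NK cell markers fell, and 2 promyelocyte markers rose and 1 fell. The mean level of the promyelocyte markers in Pml null at 12 h was 11.23 to 11.60 in the untreated and 11.65 to 11.97 in the RA arrays. At 6 h, 1 erythroid, 1 stroma and 1 promyelocyte marker rose in PML/RARA and 1 promyelocyte and 1 monocyte marker fell, and 1 promyelocyte marker rose in PLZF/RARA. The part of these cells in the result was not tested.

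**Figure D2:**
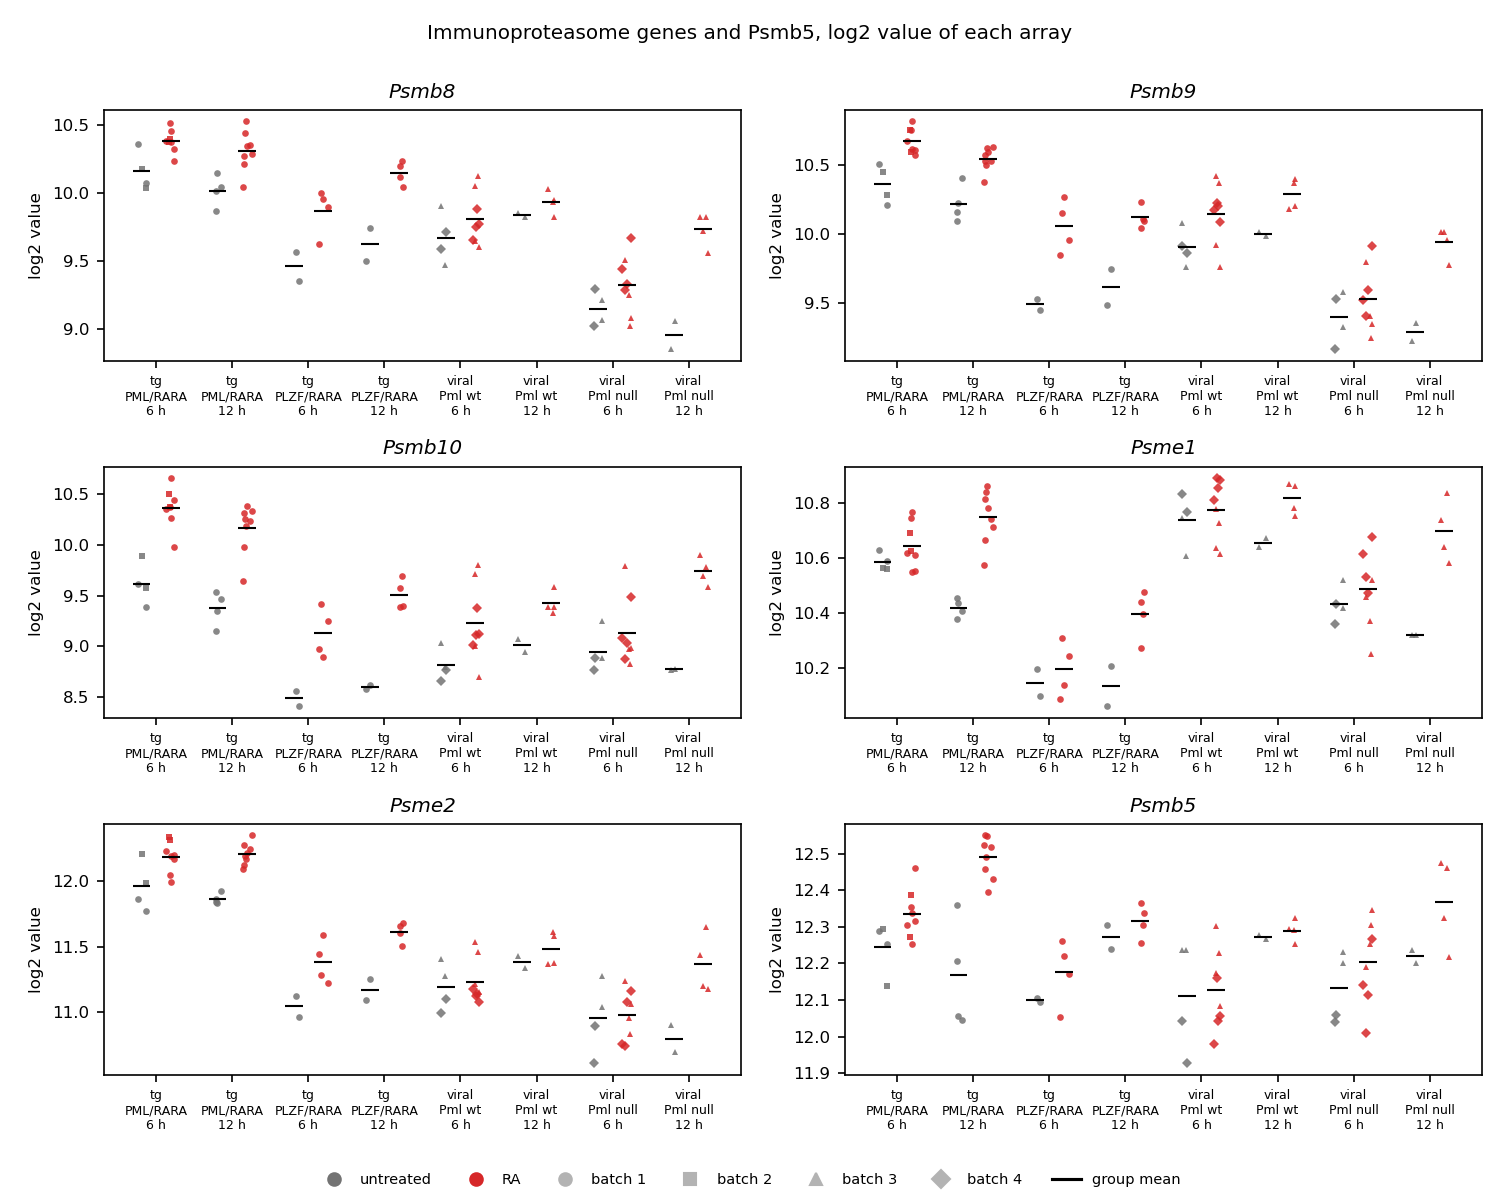
Log2 value of every array for the 5 immunoproteasome genes and the constitutive Psmb5, by leukaemia, time and treatment (grey untreated, red RA, symbols for batches, bars for group means). Untreated Pml null arrays of Psmb8 lie between 8.85 and 9.29, and its RA arrays at 12 h between 9.56 and 9.83.

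Each inducible catalytic subunit was set against the constitutive subunit it replaces, as the log2 difference between the genes within an array. Since probe sets differ in brightness, only the change of this difference between RA and untreated arrays is read. The change is a difference of plain means, without a batch term. At 6 h in PML/RARA, batches 1 and 2 hold unequal shares of the untreated and RA arrays. A batch difference can therefore enter the change and its p there. In PML/RARA the difference of Psmb10 from Psmb7 rose by 0.81 at 6 h and 0.79 at 12 h. In exact two-sided permutation tests within batches, adjusted over the 24 tests, p was 0.0357 at 6 h and 0.0242 at 12 h. The difference of Psmb9 from Psmb6 rose by 0.26 (exact permutation adjusted p 0.0357) and 0.35 (adjusted p 0.0242). The difference of Psmb8 from Psmb5 changed by 0.13 (exact permutation p 0.0893, adjusted 0.143) and -0.03 (adjusted p 0.802). At 12 h Psmb5 itself rose in PML/RARA, from 12.36, 12.05, 12.21 and 12.06 in untreated arrays to between 12.40 and 12.55 in RA arrays (0.32 ± 0.06, limma adjusted p 6.15e-05). In PLZF/RARA at both times and in Pml null at 12 h, all 3 differences were higher in every RA array than in every untreated array, by 0.33 to 1.07. For scale, single genes were higher in every RA array for 12.3% and 7.93% of all genes in PLZF/RARA at 6 h and 12 h and for 16.1% in Pml null at 12 h. With 2 arrays against 4 the exact permutation test cannot go below 0.0667, which all 9 reached (adjusted p 0.114). In Pml wild type at both times and in Pml null at 6 h none of the 9 changes passed, and they ran from -0.04 to 0.53, the last, Psmb10 minus Psmb7 in Pml wild type at 12 h, without overlap (14.0% of single genes there). That change also reached the exact permutation limit of 0.0667 (adjusted p 0.114). Pml wild type at 12 h, with 2 arrays against 4, could not pass either. For PML/RARA at 6 h, leaving out any 1 of 6 arrays, the 4 untreated ones and RA arrays 1 and 2, took both called changes above the threshold. Fewer arrangements within batches were then left, and even the smallest p that they allow could not pass after adjustment. These losses therefore say nothing about the values of the arrays. With each array of that comparison left out, the changes were 0.233 to 0.301 and 0.69 to 0.905.

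**Figure D3:**
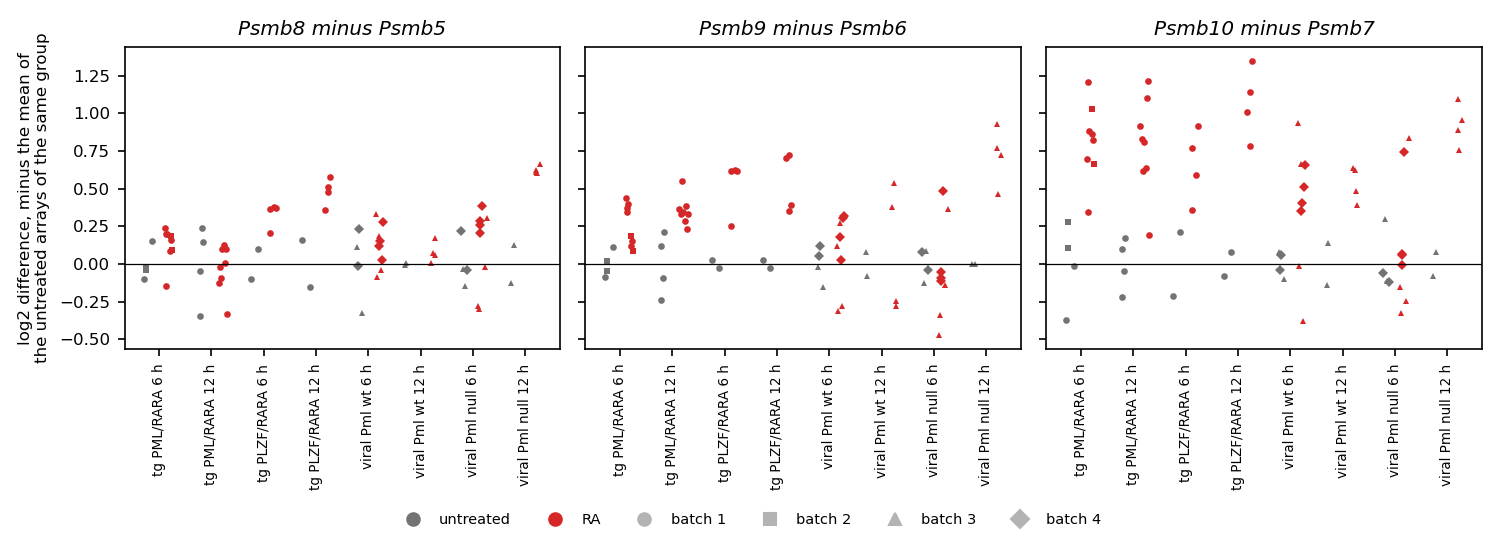
Within-array log2 difference between each inducible catalytic subunit and the subunit it replaces, minus the mean of the untreated arrays of the same leukaemia and time (grey untreated, red RA, symbols for batches). The change in Psmb10 minus Psmb7 is 0.81 in transgenic PML/RARA at 6 h and 0.92 in Pml null at 12 h, while Psmb8 minus Psmb5 changed by -0.03 in PML/RARA at 12 h.

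Whether the RA effect itself differed between leukaemias was tested as a difference of differences averaged over both times. Between the transgenic leukaemias, 1 gene of the set was called (7.42% of all genes), Psmd5. None of the immunoproteasome genes was called there by limma, and 2 had an unadjusted p below 0.05. PML/RARA minus PLZF/RARA was -0.22 for Psmb8 (95% interval -0.42 to -0.01, adjusted p 0.213), -0.22 for Psmb9 (-0.41 to -0.03, adjusted p 0.169) and 0.01 for Psmb10 (-0.29 to 0.30, adjusted p 0.988). Between the viral leukaemias limma called no gene of the set (1.13% of all genes), and 5 had an unadjusted p below 0.05, of which 1 was an immunoproteasome gene. Pml wild type minus Pml null was -0.36 for Psmb8 (-0.62 to -0.10, adjusted p 0.275) and -0.16 for Psmb10 (-0.56 to 0.23, adjusted p 1). At 12 h alone, a comparison added after the data were seen, it was -0.68 for Psmb8 (-1.10 to -0.25, unadjusted p 0.00267 by limma, adjusted 0.31) and -0.47 for Psme2 (-0.87 to -0.07, adjusted p 0.735), with 0.115% of all genes and no gene of the set called, and 3 of the set at an unadjusted p below 0.05. So the 5 calls at 12 h in Pml null and the 0 in Pml wild type do not show that the leukaemias differ in this response.

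Among the constitutive subunits Psma6, an alpha subunit of the core, stood out by recurrence. It rose in 6 of the 8 RA effects, as did 1.6% of all genes in 6 or more. In PML/RARA at 6 h, untreated arrays read 11.39, 11.21, 11.12 and 11.00, and RA arrays ran from 11.52 to 11.95 (median 11.80), without overlap (0.65 ± 0.10, 1.57-fold, adjusted p 8.43e-06). In Pml wild type at 6 h, untreated arrays read 10.88, 10.89, 11.57 and 11.46, and RA arrays 11.63 to 12.04 (median 11.85). The lower pair of untreated arrays belongs to batch 4 and the higher pair to batch 3. The pooled difference was 0.64 ± 0.09 (adjusted p 4.1e-06), and it was 0.48 ± 0.12 within batch 3 (adjusted p 0.0612) and 0.80 ± 0.12 within batch 4 (adjusted p 0.00117). In Pml null at 6 h it was 0.65 ± 0.09 (adjusted p 2.71e-06), with 0.56 and 0.74 within batches 3 and 4. At 12 h it rose by 0.46 ± 0.10 in PML/RARA, 0.44 ± 0.12 in Pml wild type and 0.45 ± 0.12 in Pml null (adjusted p 0.000387, 0.0275 and 0.0245). Both viral 12 h calls were lost without either untreated array. They were also lost without RA arrays 3 or 4 in Pml wild type, without RA arrays 2 or 4 in Pml null, and without the batch term. In PLZF/RARA the differences of 0.47 ± 0.13 and 0.19 ± 0.13 did not pass (adjusted p 0.0564 and 0.546).

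The other 30 constitutive subunits had at most 2 calls in any RA effect, and their median difference lay between -0.03 and 0.13 in the 8. Psmb4, a core beta subunit, rose in PML/RARA at 6 h (0.30 ± 0.07, adjusted p 0.00346). Psma2, an alpha subunit, and Psmc1, a base ATPase, rose in Pml null at 6 h, by 0.33 ± 0.07 and 0.36 ± 0.11 (adjusted p 0.00253 and 0.0255). The call of Psmc1 was lost without untreated arrays 2, 3 or 4 or RA array 6, without the batch term and with the mean of its probe sets. Psmc4, also a base ATPase, fell by 0.23 on the log2 scale in PML/RARA at 12 h (adjusted p 0.0176). Psmd7, a lid subunit that pairs with the deubiquitinase Psmd14, was the 1 subunit that fell repeatedly. In PML/RARA at 6 h its untreated arrays read 10.24, 10.36, 10.41 and 10.27 and its RA arrays 9.94 to 10.13 (median 10.01), without overlap (-0.30 ± 0.08, adjusted p 0.00501), a call lost without untreated array 3. There 7.75% of all genes were lower without overlap. In Pml wild type at 12 h, untreated arrays read 10.19 and 10.22, and RA arrays 9.58, 9.63, 9.85 and 9.66 (-0.52 ± 0.15, adjusted p 0.0249). Its call in Pml wild type at 6 h (-0.32 ± 0.10, adjusted p 0.0459) was lost in 10 of 12 fits that left out 1 array. The 12 h call was lost without either untreated array or RA arrays 1, 2 or 4. The thymus form Psmb11, the testis form Psma8 and the activators Psme3 and Psme4 were called in no RA effect, and the inhibitor Psmf1 rose in PML/RARA at 12 h (0.19 ± 0.07, adjusted p 0.0371). Psmb11 averaged 5.96 over all arrays, and Psma8 read 4.70 to 5.26 in untreated transgenic arrays. Both lie below the array medians of 6.56 to 6.81, so a missing call there says little about a response.

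Of the 4 chaperones that assemble the core, Psmg1 and Psmg2 fell in some RA effects and none rose. Psmg2, which forms a heterodimer with Psmg1 that guides alpha ring assembly, fell in 6 of the 8 RA effects. Of all genes, 1.26% fell in 5 or more, and the share for 6 or more was not computed. In Pml wild type at 6 h its untreated arrays read 9.34, 9.37, 9.37 and 9.50, and its RA arrays 8.24 to 9.23 (median 8.79), without overlap (-0.65 ± 0.15, adjusted p 0.00342). There 2.20% of all genes were lower without overlap. In Pml wild type at 12 h, untreated arrays read 9.52 and 9.45, and RA arrays 8.75, 8.60, 8.90 and 8.70 (-0.75 ± 0.21, adjusted p 0.0255). In Pml null it fell by 0.52 at 6 h and 0.80 at 12 h (adjusted p 0.0173 and 0.0153), and in PML/RARA by 0.41 and 0.40 (adjusted p 0.0146 and 0.00963). Its differences in PLZF/RARA, 0.07 ± 0.16 and -0.22 ± 0.16, did not pass (adjusted p 0.881 and 0.556), and its RA effect was not called different between the transgenic leukaemias (-0.33, adjusted p 0.169). The 6 h calls of Psmg2 in PML/RARA and Pml null did not pass within single batches. Without 1 array, the PML/RARA call was lost for untreated arrays 3 and 4, and the Pml null call at 6 h for untreated arrays 1 and 2. At 12 h, both viral calls were lost without either untreated array or RA arrays 2 or 4. Psmg1 fell in PML/RARA at 12 h, from 9.93, 9.98, 10.09 and 9.85 to between 9.43 and 9.77 (-0.35 ± 0.09, adjusted p 0.00286), and in Pml null at 6 h (-0.38 ± 0.10, adjusted p 0.00966). Psmg3 and Psmg4 were called in none.

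Psmd5, a chaperone of the base that is not part of the finished proteasome, rose in PML/RARA at 12 h (0.20 ± 0.07, adjusted p 0.0221) and fell in Pml null at 6 h (-0.37 ± 0.10, adjusted p 0.0195). These calls were lost without untreated array 1 of PML/RARA, and without untreated arrays 1 or 2 of Pml null. The first was also lost with arrays shifted to one median and in a fit to its own arrays. The difference of its RA effects between PML/RARA and PLZF/RARA was 0.29 ± 0.08 (adjusted p 0.0223), the 1 such difference called in the set. It did not pass without untreated array 1 or 2 of PLZF/RARA at 6 h, without untreated array 1 of PLZF/RARA at 12 h, or without the batch term. Psmd10, another base chaperone and also known as the oncoprotein gankyrin, rose in PML/RARA at 6 h (0.35 ± 0.12, adjusted p 0.0386). Psmd9, the remaining base chaperone, was not called.

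**Figure D4:**
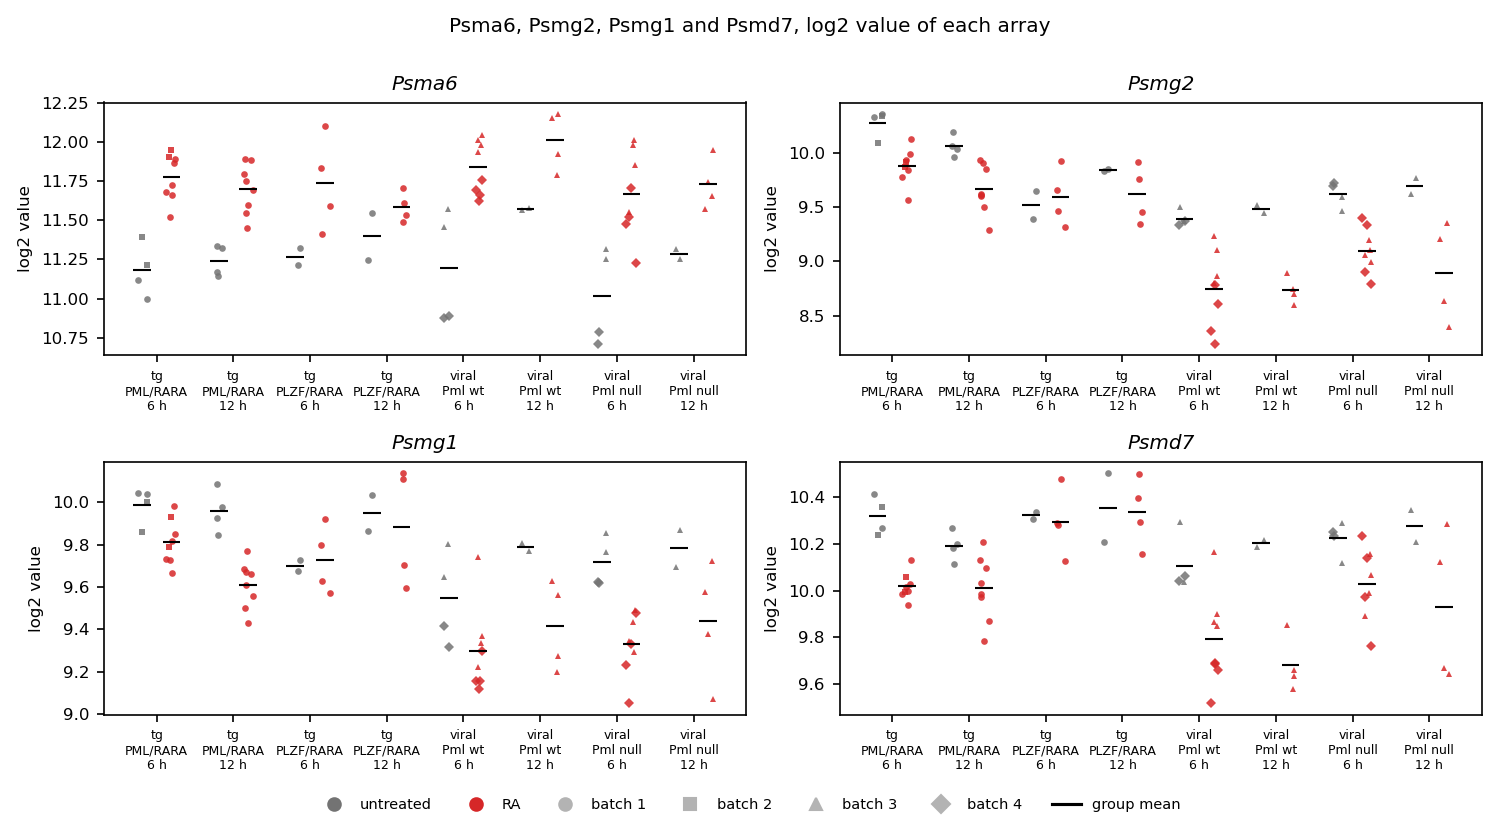
Log2 value of every array for Psma6, Psmg2, Psmg1 and Psmd7 by leukaemia, time and treatment (grey untreated, red RA, symbols for batches, bars for group means). Psma6 reads 11.52 to 11.95 in the RA arrays of transgenic PML/RARA at 6 h against 11.00 to 11.39 untreated, and Psmg2 reads 8.24 to 9.23 in the RA arrays of Pml wild type at 6 h against 9.34 to 9.50.

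Other genes of the pathway were read from lists. Of 9 measured genes of antigen presentation, 0 to 2 rose and 0 or 1 fell in each RA effect. Tap2, a subunit of the peptide transporter, rose in 7 of the 8 RA effects, by 0.48 in PML/RARA at 6 h (adjusted p 1.9e-05) and by 1.04 in Pml null at 12 h (adjusted p 0.0003). Tap1, the other subunit, rose in Pml wild type at 6 h alone (0.33, adjusted p 0.025). Tapbp, which loads peptide on MHC class I, rose in PML/RARA and Pml null at 12 h (0.33 and 0.49, adjusted p 0.042 and 0.0038). B2m, the MHC class I light chain, was called in none. Of 13 measured interferon pathway and regulatory genes, 4 and 6 rose in PML/RARA at 6 h and 12 h, 2 and 8 in PLZF/RARA and 2 in each viral comparison, and none fell. Irf1, a transcription factor known to act on immunoproteasome promoters, rose in all 8, by 1.20 in PLZF/RARA at 6 h to 2.16 in Pml null at 6 h. No immunoproteasome gene was called in Pml null at 6 h or in Pml wild type, and the part of Irf1 was not tested. Its RA effect was lower in Pml wild type than in Pml null by 0.62 (adjusted p 0.0091). Of 17 measured assembly and associated genes, 1 or 2 rose and 0 to 5 fell. Mafg, a partner of the proteasome gene activator Nfe2l1, rose in all 8 (0.78 to 1.44). Ubqln4, which shuttles ubiquitinated proteins, fell in PML/RARA at both times and in the other 3 leukaemias at 6 h. Of 8 measured genes for ubiquitin-activating and conjugating enzymes, none rose and 0 to 2 fell. Pomp, the core maturation factor, was called in no RA effect (0.04 in PML/RARA at 6 h, adjusted p 0.88).

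Without RA, the immunoproteasome genes stood higher in transgenic PML/RARA than in PLZF/RARA. Over 8 PML/RARA and 4 PLZF/RARA untreated arrays of both times, 13 genes of the set were higher and 2 lower (13.1% and 12.2% of all genes), and all 5 immunoproteasome genes were among the higher. Psmb10 read 9.15 to 9.90 (median 9.50) in PML/RARA and 8.41 to 8.61 in PLZF/RARA, without overlap (0.92 ± 0.12, 1.89-fold, limma adjusted p 2.31e-07). The share of all genes without overlap was not computed for this untreated comparison, in which 25.3% of all genes were called. Psme2 read 11.77 to 12.21 against 10.97 to 11.25 (0.75 ± 0.07, adjusted p 7.99e-11), and Psmb9 10.10 to 10.51 against 9.45 to 9.75 (0.74 ± 0.08, adjusted p 2.14e-09). Psmb8 and Psme1 were higher by 0.56 and 0.36 (adjusted p 2.29e-06 and 1.69e-05). After RA, Psmb10 in PLZF/RARA reached 9.38 to 9.69 at 12 h, within the range of untreated PML/RARA. Of the 31 constitutive subunits 6 were higher and none lower, by 0.23 (Psmb7) to 0.41 (Psma7), with a median difference of 0.15 over all 31. Leaving out 1 array gave 3 to 11 called constitutive subunits. It was 11 without untreated array 1 of PLZF/RARA at 12 h, and 3 without array 2 of PLZF/RARA at either time, array 4 of PML/RARA at 6 h or array 3 of PML/RARA at 12 h. A second quantile normalization gave 10. The call of Psmb7 was lost without any 1 of 5 untreated arrays, namely 3 and 4 at 6 h and 3 at 12 h in PML/RARA and array 2 at either time in PLZF/RARA, and with arrays shifted to one median. Psme4, a large activator that works without ATP and ubiquitin, was lower, at 9.74 to 10.14 against 10.64 to 10.94 (-0.88 ± 0.08, 0.543-fold, adjusted p 6.13e-11). Psmd5 was lower by 0.50 (-0.50 ± 0.07, adjusted p 3.77e-07), and Psmg2 was higher (0.50 ± 0.12, adjusted p 0.00133). Psmc3ip, no proteasome gene, was higher by 0.90. Erythroid markers were higher in 4 of 4 (median difference 2.71), with mean levels of 8.14 to 9.74 in the PML/RARA and 6.13 to 6.65 in the PLZF/RARA untreated arrays. Among the other lists 4 of 6 promyelocyte markers and 1 of 5 B cell markers were higher and none lower. Of the monocyte and macrophage markers 4 of 6 were higher and 1 lower, of the stroma markers 4 of 7 and 1, of the T and NK cell markers 3 of 6 and 1, and of the dendritic cell markers 1 of 5 and 1, and 11 of 13 interferon genes were higher too. The part of these in the difference was not tested.

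Before RA, the viral leukaemias differed in the immunoproteasome and in a few constitutive subunits. In Pml wild type against Pml null, over 6 untreated arrays each, 10 genes of the set were higher and 2 lower (9.92% and 10.9% of all genes). A fit to the untreated arrays alone called 20. Psmb8 read 9.47 to 9.91 (median 9.77) in Pml wild type and 8.85 to 9.29 (median 9.07) in Pml null, without overlap (0.70 ± 0.10, 1.63-fold, adjusted p 2.88e-06). The share of all genes without overlap was not computed here either, and 20.8% of all genes were called. Psmb9 was higher by 0.61, Psme2 by 0.41 and Psme1 by 0.32 (adjusted p 7.13e-05, 0.0018 and 6.88e-05). Psmb10 read 8.65 to 9.07 and 8.76 to 9.25, with a difference of 0.05 ± 0.16 (adjusted p 0.911). At 12 h after RA, Psmb8 in Pml null read 9.56 to 9.83, which lies within the range of untreated Pml wild type. Monocyte and macrophage markers were higher in 4 of 6, with mean levels of 9.20 to 9.65 in Pml wild type and 8.34 to 8.95 in Pml null untreated arrays, and 2 of 5 B cell markers were lower. All 6 promyelocyte markers were called, 3 higher and 3 lower, with mean levels of 12.55 to 12.68 in Pml wild type and 11.23 to 11.77 in Pml null. Of 6 T and NK cell markers 1 was higher and 2 lower, 1 of 5 dendritic cell markers was higher and 1 of 7 stroma markers lower. Of 13 interferon genes 8 were higher and 1 lower. Their part in the difference was not tested.

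Among constitutive subunits, Psmc1 read 10.08 to 10.62 in untreated Pml wild type and 9.15 to 9.53 in Pml null (0.99 ± 0.11, 1.99-fold, adjusted p 6.63e-09). Psma3, an alpha subunit, read 11.28 to 11.49 and 10.44 to 10.60 (0.81 ± 0.09, adjusted p 7.49e-09). Psmc3, a base ATPase, read 9.09 to 9.46 and 8.58 to 8.81 (0.66 ± 0.08, adjusted p 2.57e-08). None of these groups overlapped, but the share of all genes without overlap was not computed for untreated comparisons. Of all genes, 20.8% were called in this one. Psma1, Psmd2 and the chaperone Psmg3 were higher by 0.21, 0.21 and 0.22 (adjusted p 0.00255, 0.00415 and 0.0468), and the lid subunit Psmd12 was lower (-0.34 ± 0.09, adjusted p 0.00451). Pomp was higher by 0.62 (adjusted p 1.6e-07). Psma8, the form of alpha subunit known from testis, was lower in Pml wild type, at 6.64 to 7.35 against 7.93 to 8.33 in Pml null (-1.12 ± 0.17, 0.461-fold, adjusted p 7.6e-06). Its untreated transgenic arrays read 4.70 to 5.26, but the models share no batch, so model and batch cannot be told apart. Psma3 is represented by 3 probe sets whose values correlated at 0.993 or more over the 72 arrays and may measure near-identical copies, and the second probe set of Psmc1 correlated at 0.946 with the one used.

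**Figure D5:**
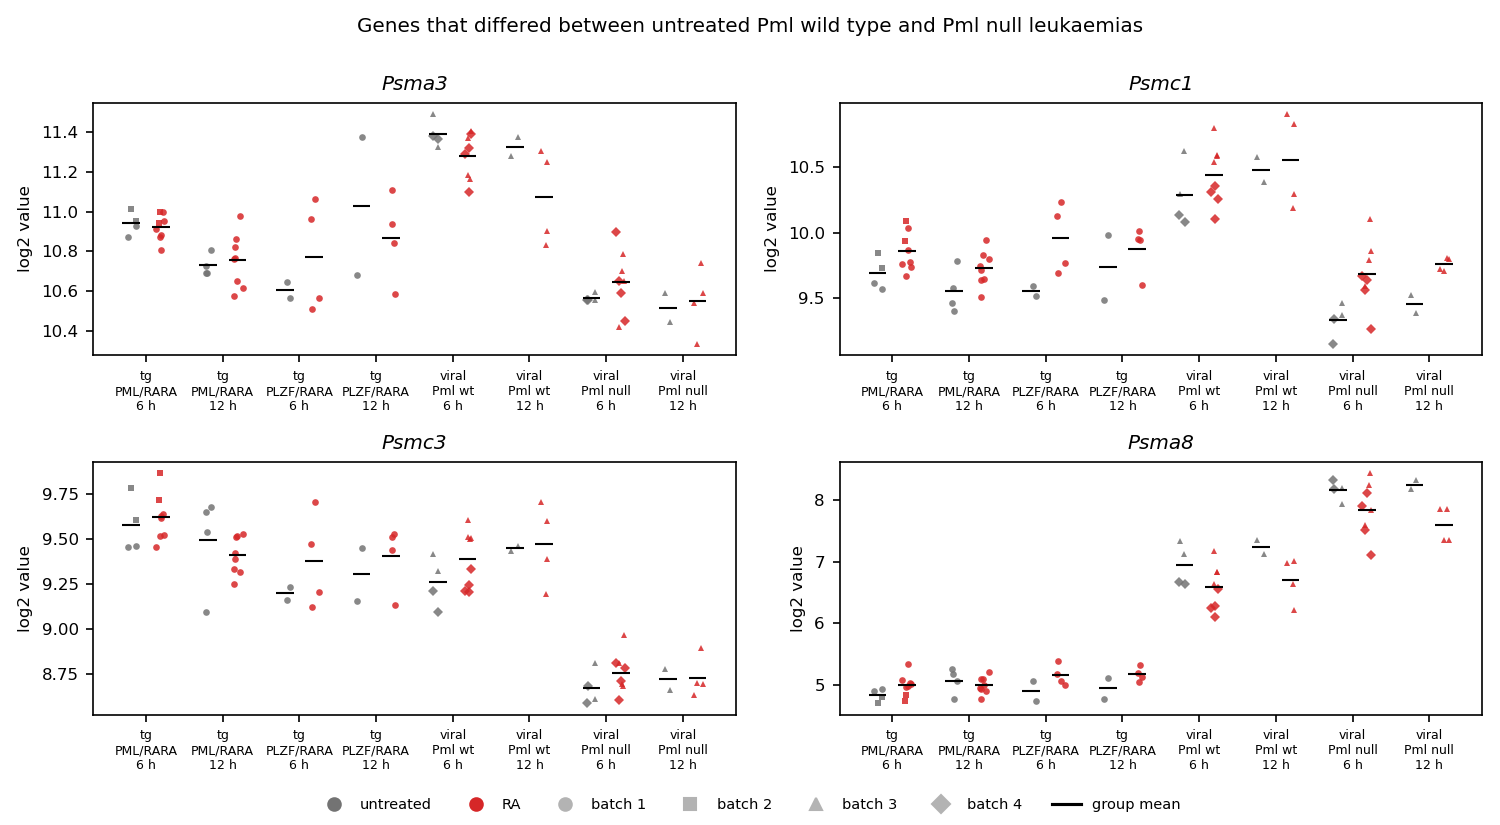
Log2 value of every array for Psma3, Psmc1, Psmc3 and Psma8 by leukaemia, time and treatment (grey untreated, red RA, symbols for batches, bars for group means). Psma3 and Psmc3 are lower and Psma8 is higher in untreated Pml null than in untreated Pml wild type arrays, for Psma8 at 7.93 to 8.33 against 6.64 to 7.35.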

How the data were processed

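Total RNA of 72 bone marrow samples was hybridised to Affymetrix Mouse Gene arrays. The authors deposited 1 value per probe set and array on the log2 scale (35556 values per array). RMA and affy are named in the submitters' processing notes, without versions; whether batches were corrected is not given there. Values were used as deposited. Of the 35556 probe sets, 21789 carry 1 symbol, and the brightest per symbol gave 19938 genes. For 5 genes of the set there was a choice of probe sets, and a probe set listed as both Psme2b and Psme2 was not used.

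With limma 3.58.1 (R 4.3.3, data.table version 1.17.8), each model was fitted to its 36 arrays with group coefficients and batch as an additive term. All tests were two-sided and adjusted by Benjamini-Hochberg over 19938 genes, and called means an adjusted p below 0.05. Pairs of subunits were compared by exact permutation within batches. The code was tested on simulated data, first with residuals shuffled between arrays, which keeps the correlation between genes, and, after bursts of false calls were seen there, also with independent noise per gene. With correlated noise most draws gave few false calls and occasional draws gave many at once, above all in Pml null at 12 h. Genes called together in 1 comparison are therefore not independent evidence, and the adjusted p-values do not allow for this. Named genes were all symbols of the pattern, by role. The members and lists were chosen with earlier results of these data known. Replicate numbers were given in accession order and pair nothing. Alternatives were other normalization, probe set choice, a filter on dim genes, no batch term, single batches, each comparison's own arrays, pooled untreated arrays and leaving out each array. The number of arrays limits the precision.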

Additional observations from a re-analysis of the deposited data

Results flagged for a closer look

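In 228 groups of 4 to 10 arrays over 19 genes of the set, 8 had an array that stood apart from the rest of its group by Dixon's test, and chance gives about 1 in 20. Psmb6 read 9.90 in untreated array 2 of Pml null at 6 h, below 10.15 to 10.19 in the others. Psmg2 read 10.09 in untreated array 1 of transgenic PML/RARA at 6 h, below 10.33 to 10.36. Psmg1 read 9.74 in RA array 6 of Pml wild type at 6 h, above 9.12 to 9.37. Psmd7 read 10.29 in untreated array 4 of Pml wild type at 6 h, above 10.04 to 10.06. Psma3 read 10.60 in untreated array 3 of Pml null at 6 h, above 10.55 to 10.56. Psmc1 read 9.60 in RA array 4 of PLZF/RARA at 12 h, below 9.95 to 10.01. Psme4 read 9.74 in untreated array 4 of transgenic PML/RARA at 6 h, below 9.95 to 9.97. Psmd5 read 10.28 in RA array 4 of PLZF/RARA at 6 h, above 10.16 to 10.17. The RA effect on Psmd5 differed between transgenic PML/RARA and PLZF/RARA by 0.29 in limma's test of the difference (adjusted p 0.0223).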

How the results depend on the processing

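For the 19 genes whose array values were examined, no called value changed its direction under any alternative that was run. Of these, 45 of 505 called values lost their call under an alternative other than leaving out an array, as did 73 of 666 when an array was left out. The counts of called genes of the set that moved by over 1.5 times were as follows. A second quantile normalization gave 5 in Pml wild type at 12 h, and it took the change in Psmb9 minus Psmb6 in PML/RARA at 6 h above the threshold (0.264, exact permutation adjusted p 0.0714). Shifting arrays to one median gave 1 in PLZF/RARA at 6 h. Leaving out dim genes gave 5 there, 5 in Pml wild type at 12 h and 2 for the difference of the transgenic RA effects. Each comparison's own arrays gave 0 and 1 in PLZF/RARA at 6 h and 12 h, 3 in Pml null at 12 h and 20 for the untreated viral difference. Pooled untreated arrays gave 14 in PML/RARA at 6 h, 6 and 10 in Pml wild type and 11 in Pml null at 12 h. Single batches gave 5 and 3 in PML/RARA (batches 1 and 2), 0 in Pml wild type (batch 3) and 1 and 1 in Pml null (batches 3 and 4), all at 6 h. Single times, added after the data were seen, gave 0 and 0 for the difference of the transgenic RA effects. The cause of these moves was not tested. Single batches and own-array fits also hold fewer arrays.

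Leaving out 1 array gave ranges of 4 to 9 and 10 to 13 called genes in PML/RARA at 6 h and 12 h, 0 to 4 and 1 to 5 in PLZF/RARA, 2 to 5 and 0 to 4 in Pml wild type and 3 to 7 and 1 to 8 in Pml null. For the differences of RA effects it gave 0 to 2 (transgenic) and 0 to 0 (viral), and for the untreated differences 12 to 21 and 11 to 13. Where this left 1 untreated array, that array was assumed to vary like the other groups. The 6 h changes of the subunit pairs in PML/RARA ranged from 0.233 to 0.301 (Psmb9 minus Psmb6) and 0.69 to 0.905 (Psmb10 minus Psmb7). No paired analysis was run. The labels give every array the same replicate number, and the sample numbers in the titles do not say which arrays belong together. The share of higher calls over all genes moved from 66.1% to 54.3% (quantile) and 48.0% (one median) in PLZF/RARA at 6 h, from 55.1% to 44.6% and 40.0% in Pml wild type at 6 h, and from 69.8% to 59.3% (quantile) in Pml null at 12 h.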
